A study of Mus musculus with 29 samples.

Results

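Single cumulus cells were examined for how their transcripts vary from cell to cell. The members are the 12 libraries labelled CC_1 to CC_12, chosen by their label alone, of 29 libraries in the series. The other 17 libraries are whole 2-cell embryos made by nuclear transfer of a cumulus cell nucleus into an enucleated oocyte: 9 control embryos cultured without hydroxyurea and 8 exposed to hydroxyurea. All 3 groups carry the strain label BDF1, and the labels give the cumulus cells no treatment, genotype, age or time. Each cell was picked by hand into lysis solution and converted to cDNA by Smart-seq2, a full-length method that marks neither strand nor molecule. The labels name no animal, pool or culture for the cells, so the 12 cells count as 1 sample and no test was run on them. Levels are given in CPM, each gene's count scaled to the same total in every cell, with the ERCC spike-in RNAs and the ribosomal RNA row Rn45s left out of the total.

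Cumulus cells are the somatic cells that surround the oocyte, a form of granulosa cell joined to it by gap junctions. After the ovulatory signal they loosen into an expanded matrix and begin to make steroids. In this pathway cholesterol is taken up or synthesised, carried into the mitochondrion, and cut to pregnenolone by the side-chain cleavage enzyme CYP11A1, which receives electrons from the ferredoxin reductase FDXR through the ferredoxin FDX1. 3-beta-hydroxysteroid dehydrogenase, encoded by Hsd3b1 among other genes, then turns pregnenolone into progesterone.

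A group of 3 libraries stood apart from the rest. Gene counts without Rn45s came to 152332 in CC_10 and 188546 in CC_2, against 370561 to 1535076 in the other 10 cells. Per spike-in count, CC_2 gave 0.172 and CC_10 gave 0.173 gene counts, and the other 10 gave 0.340 to 1.15. Mitochondrially encoded genes took 16.7% of the counts of CC_2 and 4.37% to 9.47% in the 10 cells, while CC_10 had no count in any of the 37, which allows a share of up to 0.00197% (3 counts). This limit covers counting error only. The ribosomal RNA mt-Rnr2 held 158476 of the 166755 CPM of these genes in CC_2, against medians of 44417 and 59801 CPM over the 12 cells. The mRNA mt-Co1 was low in CC_2, at 1549 CPM against a median of 4280 CPM. Rn45s took 86.6% of all gene counts in CC_2 and 71.2% in CC_11, against 49.3% to 63.5% in the remaining cells. Detected genes numbered 4053 in CC_10 and 6014 to 8628 in the others, or 4053 to 7812 when every cell was thinned to 152332 counts. The median Spearman correlation of a cell with the other 11, over genes, was 0.307 for CC_2, 0.521 for CC_11 and 0.555 for CC_10, and 0.640 to 0.714 for the rest. CC_2 and CC_10 are therefore left out in a second set of 10 cells throughout, and results that rest on CC_11 are given without it as well.

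**Figure D1:**
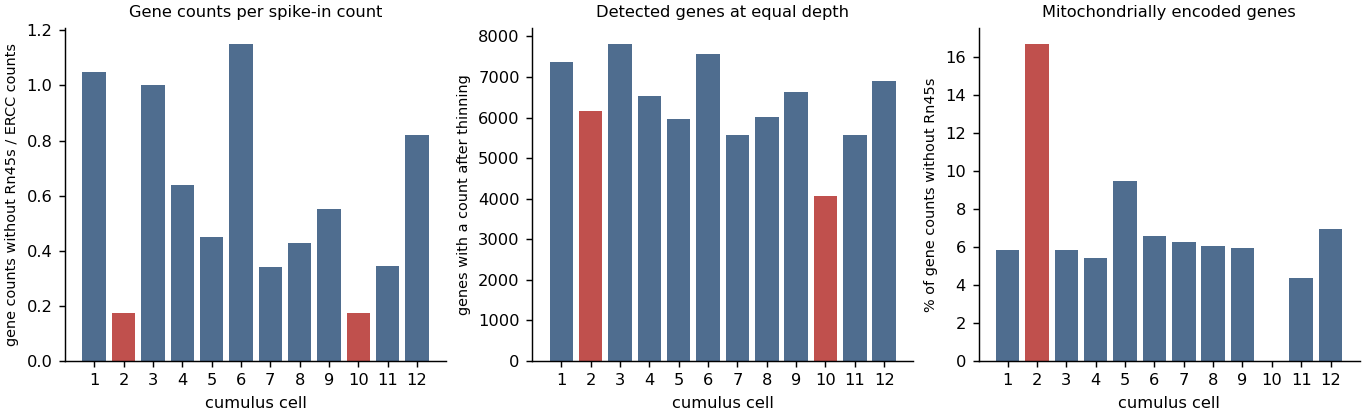
Gene counts without Rn45s per ERCC spike-in count, genes detected after thinning each cell to 152332 counts, and the share of mitochondrially encoded genes, for cumulus cells 1 to 12 (bars, 1 library each). Red bars are CC_2 and CC_10: both gave the lowest yield per spike-in count, and CC_10 has no mitochondrial count. The mitochondrial share includes mitochondrial ribosomal RNA.

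The label was checked against markers. Cyp11a1 had counts in 11 cells, Hsd3b1 in 10, and Spp1 and Timp1 in all 12. Of 32 cumulus and granulosa identity genes, 29 had a count in at least 1 cell, and Cyp19a1 (aromatase), Lhx9 and Igfbp5 were at 0 in every cell. Of all 24447 gene rows, 42.1% had no count in any cell. Only 4 of the 32 had a count in all 12 cells (12.5%, against 3.73% of all gene rows). Wt1 was counted in CC_5 alone, Gatm in CC_7 alone, and Amh in CC_3 and CC_8 alone. The summed level of this list ran from 354 CPM in CC_10 and 1305 CPM in CC_2 to 10599 CPM in CC_9, and the other cells held at least 2671 CPM. Serpine2 and Gja1 made up much of this sum, as in CC_12 with 2326 and 2035 CPM of 5341 CPM. Gja1, the connexin of cumulus gap junctions, had a median of 1203 CPM but 19.7 CPM in CC_10 and 26.5 CPM in CC_2. Serpine2, a protease inhibitor of granulosa cells, had 204 CPM in CC_10, a median of 2011 CPM and a highest value of 4059 CPM in CC_9.

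Markers of other cell types were low in most cells, with the highest immune, oocyte, stroma, endothelial and erythroid sums in CC_2 and the highest epithelial sum in CC_5. Of 16 immune markers, 15 had a count somewhere and Cd74 had none. CC_2 held 12 of the 16, with a summed level of 2058 CPM, against 217 CPM in CC_11 and 0 to 49.9 CPM in the other 10 cells. Its counts included the lysozyme Lyz2 at 801 CPM, the actin regulator Coro1a at 313 CPM and the macrophage glycoprotein Cd68 at 212 CPM. Tyrobp had 2 counts and Cd79a 3 counts there, and C1qb, Fcer1g and Adgre1 had none. Over all 24447 gene rows, CC_2 had a count for 6314. Oocyte markers summed to 355 CPM in CC_2, of which Mos held 324 CPM, and to 0 to 157 CPM elsewhere. Of their 24 genes, 16 were at 0 in all cells, among them Zp1, Zp2, Zp3 and Gdf9. Theca and stroma markers summed to 350 CPM in CC_2, of which Pdgfrb held 286 CPM, and to 0 to 84.1 CPM elsewhere. Col1a1, Col3a1 and Dcn were at 0 throughout. Endothelial markers reached 239 CPM in CC_2 and 226 CPM in CC_1, where Ramp2 held 197 CPM. The 8 erythroid genes reached 42.4 CPM, with the globin genes at 0. Epithelial markers stood out in CC_5 at 1771 CPM and in CC_10 at 985 CPM, against at most 269 CPM in the others, with Cdh1 and Krt19 at 0 in all cells. Keratins made up most of both sums: Krt18 at 1498 CPM in CC_5, and Krt8 at 597 CPM and Krt18 at 387 CPM in CC_10. Whether other cells or free RNA entered these libraries was not tested.

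Cyp11a1 and Hsd3b1, the genes of the 2 catalytic steps above, are the reference genes for what follows. Cyp11a1 lies at chr9:58006411-58027023 on the plus strand of GRCm38 and overlaps the predicted lincRNA Gm17322 on the same strand. Hsd3b1 lies at chr3:98852194-98859794 on the minus strand and overlaps no other gene. Spp1, at chr5:104435118-104441050, overlaps Gm42793 on its strand, and Timp1, at chrX:20870166-20874735, lies across Syn1 on the opposite strand. Because the libraries do not mark strand, reads of such overlapping genes cannot be told apart.

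The 250 bases before a RefSeq start site of Cyp11a1, Hsd3b1 and Fdxr are shown because the comparisons over the cells turn on these 3 genes. The windows, from RefSeq on GRCm38.p6, are chr9:58014702-58014951 (plus strand), chr3:98859795-98860044 (minus strand) and chr11:115276970-115277219 (minus strand), each written 5′ to 3′. Capitals mark AGGTCA, the core sequence read by NR5A1, a regulator of steroid genes, and CCAAT, searched on both strands (TGACCT and ATTGG).
Cyp11a1: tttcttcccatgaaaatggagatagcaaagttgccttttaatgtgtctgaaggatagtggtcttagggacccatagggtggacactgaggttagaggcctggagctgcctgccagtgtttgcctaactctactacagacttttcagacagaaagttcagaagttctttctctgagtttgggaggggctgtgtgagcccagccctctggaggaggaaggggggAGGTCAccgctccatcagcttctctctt
Hsd3b1: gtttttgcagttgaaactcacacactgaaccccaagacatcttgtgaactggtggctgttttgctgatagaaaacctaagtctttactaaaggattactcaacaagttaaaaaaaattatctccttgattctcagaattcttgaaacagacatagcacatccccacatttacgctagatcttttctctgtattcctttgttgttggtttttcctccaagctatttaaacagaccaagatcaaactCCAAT
Fdxr: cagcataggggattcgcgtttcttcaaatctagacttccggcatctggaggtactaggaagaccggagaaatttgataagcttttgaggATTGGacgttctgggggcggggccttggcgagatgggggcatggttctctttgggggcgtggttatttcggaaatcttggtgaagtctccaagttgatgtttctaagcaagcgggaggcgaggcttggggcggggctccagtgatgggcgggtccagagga
AGGTCA stood 28 bases before this Cyp11a1 start, CCAAT 5 bases before that of Hsd3b1, and CCAAT in reverse 161 bases before that of Fdxr. A second RefSeq window of Cyp11a1, at chr9:57997774-57998023, held CCAAT 24 bases before its start and no AGGTCA. The printed Cyp11a1 window, the 1 with AGGTCA, lies inside the gene span given above. The second window ends before that span begins, so neither adjoins the start of the span. The RefSeq window of Fdx1 held neither motif. Of 32851 RefSeq windows of this length, 14.0% held AGGTCA and 33.8% held CCAAT, so these matches describe the sequence and show no binding. Nr5a1 itself was counted in all 12 cells, from 52.5 CPM in CC_10 over a median of 105 CPM to 173 CPM in CC_12.

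Cyp11a1 was high in most cells and at 0 in CC_5. In order from CC_1 to CC_12 its levels were 3691, 2599, 5792, 6922, 0, 7893, 5122, 1472, 1011, 4681, 3388 and 8398 CPM. The 0 in CC_5 allows up to 5.73 CPM (3 counts), and the lowest of the other 11 cells was CC_9 at 1011 CPM. The coefficient of variation (CV, the SD over the cells divided by the mean) was 0.639 over 12 cells and 0.674 over 10.

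Hsd3b1 was spread far more widely. Its levels from CC_1 to CC_12 were 927, 101, 6159, 0, 365, 2105, 16054, 0, 2966, 4713, 544 and 15420 CPM. CC_7 and CC_12 stood above all others, and CC_4 and CC_8 had no count, which allows up to 3.83 and 2.30 CPM. The CV was 1.40 over both 12 and 10 cells. CC_4, without a count of Hsd3b1, had 6922 CPM of Cyp11a1, and CC_5, without a count of Cyp11a1, had 365 CPM of Hsd3b1. Of the paralogs of Hsd3b1 on the steroid list, Hsd3b6 was at 0 in every cell and Hsd3b2 had 12 counts, all in CC_9. Hsd3b7 had at most 97 counts, in CC_7. Reads that fit several Hsd3b genes may have been split or dropped in the counting.

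Spp1, which encodes the secreted phosphoprotein osteopontin, had the highest median CPM of the genes found in every cell. From CC_1 to CC_12 it had 15975, 1305, 30834, 37422, 45485, 20809, 35917, 37885, 24149, 1963, 7735 and 10225 CPM. CC_2 and CC_10 were lowest, and without them the CV fell from 0.674 to 0.482. Timp1, the gene of a secreted metalloproteinase inhibitor, varied least of the 4 markers over 12 and over 10 cells. It had 1124, 514, 1026, 1276, 3028, 1313, 898, 1382, 1525, 1326, 1184 and 1989 CPM in the same order. Its CV was 0.454 over 12 cells, 0.423 over 10 and 0.302 without CC_5 alone. Without CC_2, CC_10 and CC_11 the CV of Timp1 was 0.433, and that of Spp1 was lower at 0.405. The highest Timp1 value was in CC_5, the cell with the most Spp1 and no Cyp11a1.

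**Figure D2:**
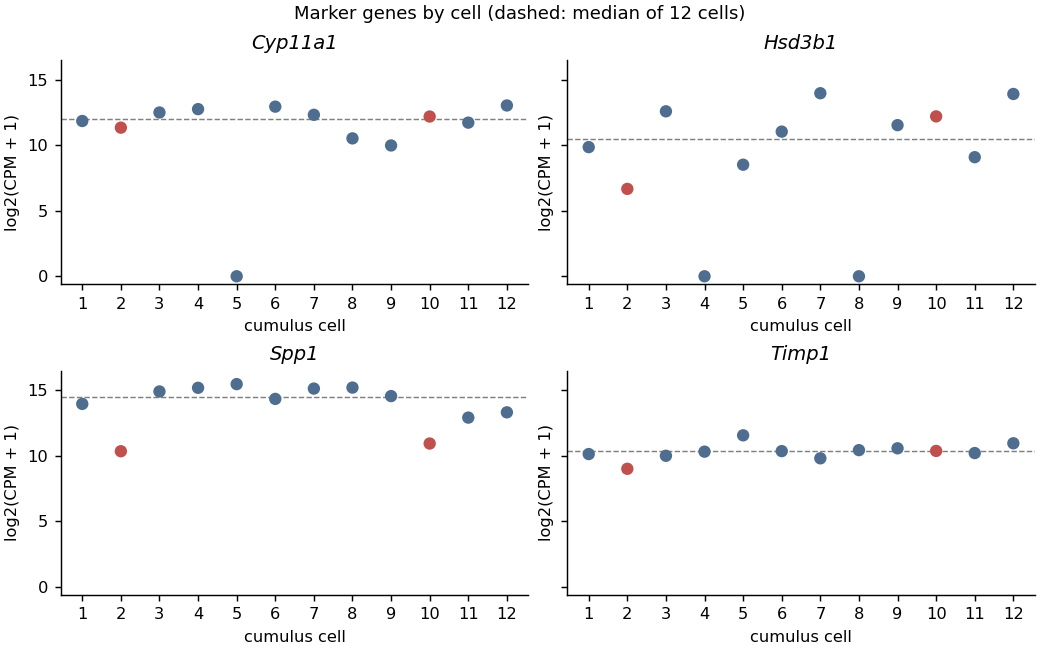
Levels of Cyp11a1, Hsd3b1, Spp1 and Timp1 on the log2(CPM + 1) scale in cumulus cells 1 to 12 (1 point a cell, dashed line at the median, red points CC_2 and CC_10). Hsd3b1 ranges from 0 in CC_4 and CC_8 to 16054 CPM in CC_7, while Timp1 stays between 514 and 3028 CPM.

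The 4 markers did not order the cells alike. Spearman's rho between Cyp11a1 and Hsd3b1 was 0.44 over 12 cells and 0.39 over 10. Without CC_12 and CC_5, the cells farthest from the median of Cyp11a1, it was 0.26, without CC_4 it was 0.70, and Pearson's correlation of log2(CPM + 1) was 0.11. Spp1 had a rho of -0.19 with Cyp11a1 and -0.22 with Hsd3b1 over 12 cells, and of -0.39 and -0.40 over 10. The rank correlation between Spp1 and Timp1 was 0.32 over 12 cells and 0.18 over 10. Each point is 1 library, so both genes of a point share its depth and total. All rho values over cells are descriptions without a test. Library measures moved with some markers: Cyp11a1 had a rho of 0.46 with gene counts per spike-in count, Hsd3b1 of -0.54 with the share of Rn45s, and Spp1 of 0.56 with gene counts. Over 10 cells these were 0.53, -0.43 and 0.25, and their part in the patterns was not tested.

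The steroid pathway around Cyp11a1 was counted unevenly. Of 23 measured steroid genes, 20 had a count and 5 had one in all 12 cells (21.7%, against 3.73% of all 24447 gene rows): Fdx1, Fdxr, Tspo, Nr5a1 and Hsd17b12. Fdx1 ran from 543 CPM in CC_5 and 721 CPM in CC_2 over a median of 5190.0 CPM to 8471 CPM in CC_12. Fdxr had 554, 133, 706, 641, 91.7, 552, 728, 56.8, 158, 473, 310.04 and 1190.1 CPM from CC_1 to CC_12. It was lowest in CC_8, CC_5, CC_2 and CC_9, which were also the 4 cells with the least Cyp11a1. Star, whose product moves cholesterol into the mitochondrion, had a count in 8 cells, with a median of 51.8 CPM and at most 351 CPM, in CC_1. Akr1c18, the enzyme that inactivates progesterone, ranged from 0 in CC_3, CC_9, CC_11 and CC_12 to 22851 CPM in CC_10 and 6699.8 CPM in CC_8.

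Steroid and cholesterol genes were compared with Cyp11a1 and Hsd3b1 over the cells. A gene is said to follow another where rho was at least 0.7. Genes with a mean of at least 10 CPM and a count in at least 8 of 12 cells entered, 5430 in all, and over 12 cells 1.01% of these (55 genes) followed Cyp11a1, 1.05% (57 genes) followed Hsd3b1 and 0.0552% (3 genes) followed both. Of 13 steroid genes that entered beside those 2, Fdxr followed Cyp11a1 (rho 0.85 over 12 cells and 0.79 over 10). Cyb5a, a cytochrome b5 that serves several P450 enzymes, followed Hsd3b1 (0.83 and 0.84), with 0 in CC_4 and CC_11 and 648 CPM in CC_12. Fdx1 came close with Cyp11a1 (0.69 and 0.76) and not with Hsd3b1 (0.15 and 0.12). The median rho of the 13 was 0.33 with Cyp11a1 and 0.17 with Hsd3b1, against 0.07 and 0.05 over all 5430 genes.

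Of 25 cholesterol genes that entered, 3 followed Cyp11a1 and 4 followed Hsd3b1. None followed both, as for nearly all of the 5430 genes. With Cyp11a1 went Scarb1, the receptor that takes up cholesterol esters from lipoproteins (0.79 over 12 cells and 0.83 over 10), Npc2, which carries cholesterol out of the lysosome (0.78 and 0.79), and Fdps, farnesyl diphosphate synthase (0.71 and 0.72). Scarb1 had 4799, 228, 3159, 2583, 867, 5069, 2162, 99.8, 125, 276, 773 and 5686 CPM from CC_1 to CC_12, so the uptake receptor differed widely even among cells of good yield. Hsd3b1 was followed by Hmgcs1, an early enzyme of sterol synthesis (0.84 and 0.89), Mvd (0.83 and 0.83), Dhcr7, the last step to cholesterol (0.78 and 0.75), and Acat2 (0.75 and 0.73). Hmgcs1 was highest in CC_12 at 847 CPM and CC_7 at 633 CPM, the 2 cells with the most Hsd3b1, and lowest in CC_2 at 21.2 CPM. The list's median rho was 0.29 with Cyp11a1 and 0.24 with Hsd3b1. No gene of either list had a rho of -0.7 or less with either gene.

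**Figure D3:**
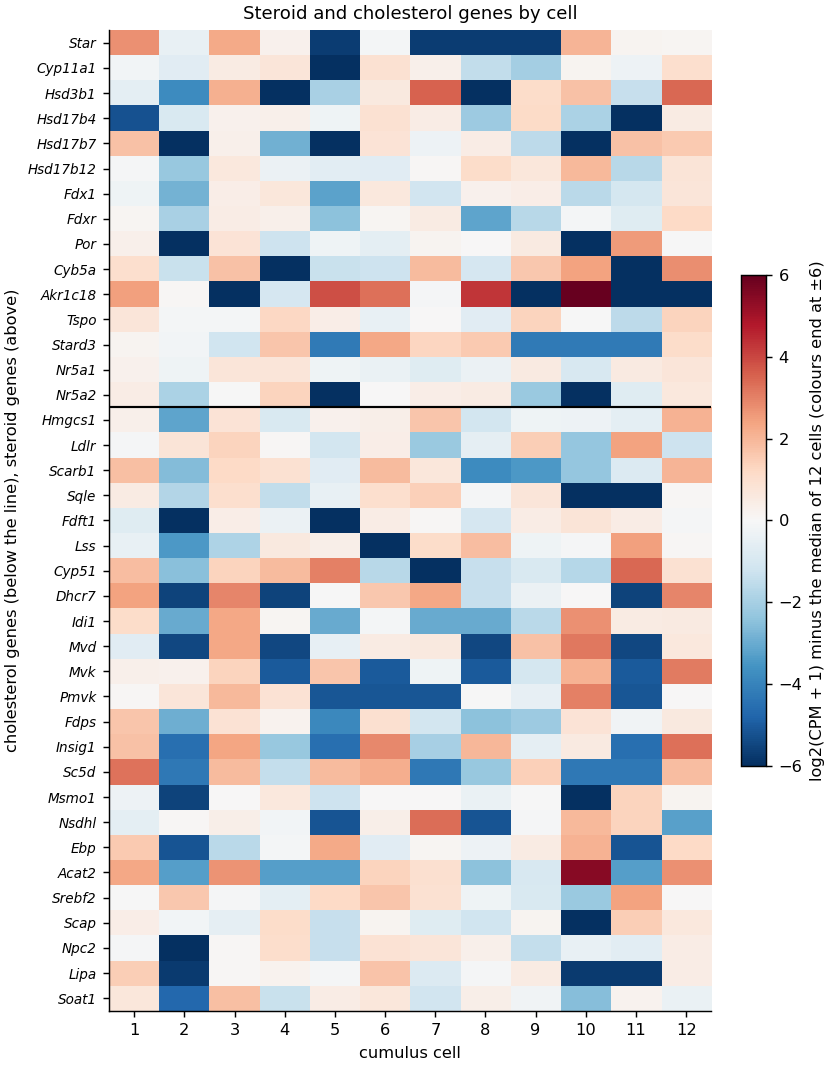
Levels of 15 steroid genes and 24 of the 25 cholesterol genes (rows) in cumulus cells 1 to 12 (columns), as log2(CPM + 1) minus each gene's median of the 12 cells, with colours ending at 6 either way. Dark blue fields are mostly values of 0: CC_5 is at 0 for Cyp11a1, and CC_4 and CC_8 for Hsd3b1.

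**Figure D4:**
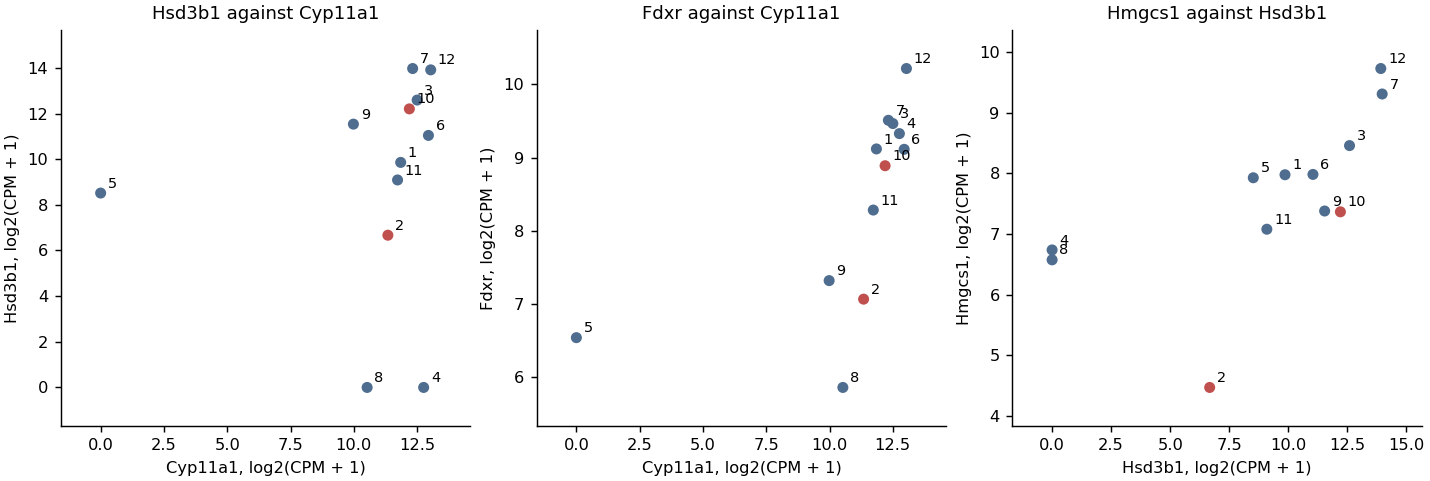
Hsd3b1 against Cyp11a1, Fdxr against Cyp11a1 and Hmgcs1 against Hsd3b1, each on the log2(CPM + 1) scale, with 1 point for each of the 12 cells (numbered, red for CC_2 and CC_10). CC_5 lies far from the other points on the Cyp11a1 axis, and CC_4 and CC_8 on the Hsd3b1 axis.

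Few genes followed Cyp11a1 and Hsd3b1 at the same time. Over 12 cells 3 of 5430 genes had a rho of at least 0.7 with both (0.0552%) and 0 had -0.7 or less with both (0%). The 3 were Mgarp, a mitochondrial protein found in steroid-making tissue, Zfp330, a zinc finger protein, and Psmg1, an assembly chaperone of the proteasome. Mgarp ran from 0 in CC_2, CC_5 and CC_9 over a median of 280.5 CPM to 1675 CPM in CC_7. Psmg1 and Zfp330 were also at 0 in CC_2 and CC_5, and had medians of 54.5 and 87.8 CPM. The rho value for Mgarp was 0.79 with Cyp11a1 and 0.75 with Hsd3b1, for Zfp330 0.82 and 0.74, and for Psmg1 0.73 and 0.73. Just outside the threshold lay Rmnd5b (0.70 and 0.69), Fdxr (0.85 and 0.68) and, on the falling side, Lamb2, a laminin chain (-0.70 and -0.76).

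Over the 10 cells again 3 genes were above the threshold with both (0.0552%), but only Zfp330 was in both sets. The others over 10 cells were Asl, argininosuccinate lyase, and Htra2, a mitochondrial protease. Another 3 were at -0.7 or less (0.0552%): Lamb2, Smc6, of the SMC5/6 complex, and Tes, an actin-associated protein. Tes had 2081 CPM in CC_8 and 151 CPM in CC_12, with a median of 407 CPM over the 12. The joint count depended on single cells and on the scaling. Without CC_4, which lacked Hsd3b1, 24 genes followed both, and without CC_3 or CC_12 it was 1. Set against spike-in counts in place of totals 57 did, with TMM factors 1, and by Pearson's correlation 0.

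Each reference gene was also taken singly, and these counts include the genes that followed both. Over 12 cells 55 followed Cyp11a1 and 9 ran against it (0.166%), and 53 of the 55 and all 9 also did so over 10 cells. With Hsd3b1 the counts were 57 and 17 (0.313%), of which 45 and 14 held over 10 cells. The 10 cells are part of the 12, so this overlap is no independent check. The 10 cells taken alone gave 106 (1.95%) and 45 (0.829%) with Cyp11a1, and 107 (1.97%) and 60 (1.1%) with Hsd3b1. The genes named next were chosen after their values were seen. Ppap2b, a lipid phosphate phosphatase, followed Cyp11a1 with a rho of 0.83 over 12 and 0.95 over 10 cells, from 0 in CC_5 and 13.1 CPM in CC_10 to 842 CPM in CC_12. Akr1cl, an aldo-keto reductase, did so with 0.83 and 0.85, and its low values were 207 CPM in CC_2 and 283 CPM in CC_5 against 3401 to 9027 CPM in the other 10. Against Cyp11a1 ran Cotl1, an actin-binding protein (-0.76 and -0.91), with 1064 CPM in CC_5 and 0 in CC_4 and CC_12, and Mprip, a myosin phosphatase partner (-0.76 and -0.81). Hsd3b1 was followed most closely by Nudc, a dynein-associated chaperone (0.90 and 0.92), and by Ppp1r15a, a stress-induced phosphatase subunit (0.87 and 0.88). Against Hsd3b1 ran Chd9, a chromodomain helicase (-0.86 and -0.85), and Setd5, a SET domain protein (-0.84 and -0.85). Setd5 had 191 CPM in CC_4 and 175 CPM in CC_2 and CC_8, and 0 in CC_10.

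A core of genes was counted in every cell. A count in all 12 cells was found for 913 of 24447 genes (3.73%), and in all 10 cells for 1944 (7.95%). At the other end 10283 genes (42.1%) had no count in any cell and 3075 (12.6%) had one in a single cell. Cytosolic ribosomal protein genes led the core, with 72 of 76 in all 12 cells (94.7%). The exceptions were Rpl26, Rpl30, Rpl34 and Rps27, and since ribosomal protein genes have near-identical copies in the genome, their counts depend on how shared reads were treated. The cytoskeleton list had 18 of 27 in all 12 (66.7%), among them the actins Actb and Actg1, and nuclear genes of oxidative phosphorylation 31 of 62 (50%). Secreted matrix genes and protease inhibitors had 9 of 27 (33.3%), including Sparc, Cst3, Ctsb and Ctsd beside Spp1 and Timp1. Of 30 proliferation genes, 0 had a count in every cell. After Spp1, the core genes with the highest median CPM were Eef1a1, Actb, Psap, Ephx2, Fdx1, Akr1cl, Actg1, Idh1 and Hsp90ab1, in that order and not scaled by length.

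The 913 genes had a median CV of 0.633, with 211 under 0.5 and 78 over 1, and over the 10 cells their median CV was 0.530. The steadiest at a mean of at least 100 CPM was Rpl18, a ribosomal protein gene, with a CV of 0.221 and values from 399 CPM in CC_11 over a median of 816 CPM to 1129 CPM in CC_10. Next came Xrn2, a nuclear exonuclease (0.234), Psmd12, of the proteasome (0.243), Rps10 (0.255) and Tma7 (0.263), followed by Nono, Sar1a, Napa, Ddx5 and Rps27l. Xrn2 lay between 198 CPM in CC_9 and 463 CPM in CC_4. Over 10 cells Ddost, a subunit of the oligosaccharyl transferase that attaches sugars to proteins, was steadiest (CV 0.144, 374 to 603 CPM), yet it had 98.5 CPM in CC_10 and 0 in CC_2. The respiratory chain gene Cox4i1 (0.162 over 10 cells) likewise had 26.5 CPM in CC_2 against 482 to 833 CPM in the other 11. For both genes, CC_2 lay far below the narrow range of the 10 cells.

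**Figure D5:**
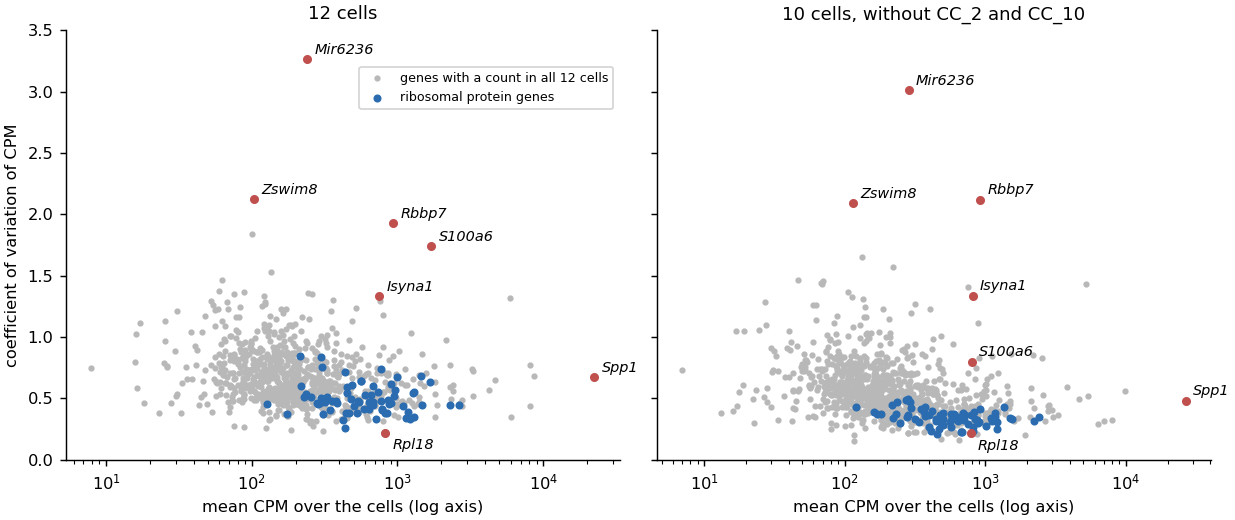
Coefficient of variation of CPM against the mean CPM (log axis) for the 913 genes with a count in all 12 cells, over 12 cells (left) and over the 10 without CC_2 and CC_10 (right). Red points are genes named on the plot; ribosomal protein genes (blue) lie low, Spp1 combines the highest mean with a CV of 0.674, and S100a6 has 1.74 over 12 cells and 0.801 without CC_2 and CC_10.

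The most variable core genes owed their highest values to a few cells. Mir6236, an annotated microRNA locus, had 2731 CPM in CC_12 and 3.07 to 39.3 CPM in the other 11 (CV 3.26). Rbbp7, a histone-binding chromatin subunit, had 6460 CPM in CC_5 and 1726 CPM in CC_10, with a median of 262 CPM (CV 1.93). S100a6, a calcium-binding protein, had 10930.1 CPM in CC_10 and a median of 721 CPM. Zswim8, of a ubiquitin ligase that acts on Argonaute, had 792 CPM in CC_11 and 8.14 to 124 CPM elsewhere, and Ccnl2, a cyclin of splicing, had 1191 CPM in CC_11 and 546 CPM in CC_2. Brd1 and Golgb1 were highest in CC_2 at 668 and 1225 CPM, Mia3 in CC_11 at 620.1 CPM, and Arid5b and Isyna1 in CC_5 at 751 and 3817 CPM. The extremes of the whole core lay mainly in 3 cells: CC_2 was lowest for 284 genes (31.1%) and CC_11 for 226 (24.8%), while CC_10 was highest for 289 (31.7%). Ribosomal protein genes summed to 16381 CPM in CC_11, 27495 CPM in CC_2 and 103957 CPM in CC_10, against 43768 to 71002 CPM in the others.

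CC_5, the cell without Cyp11a1, differed in further genes, named here after their values were seen. Fdx1 at 543 CPM and Fdps at 89.8 CPM were the lowest of the 12 cells, and Spp1 at 45485 CPM and Timp1 at 3028 CPM the highest. Krt18, a keratin, had 1498 CPM against at most 387 CPM elsewhere, and Epcam, an epithelial adhesion protein, had 72.6 CPM there and 0 in the other 11. Of the 13 measured epithelial genes, only 4 had a count in CC_5. Krt8, a further keratin, was highest in CC_10 at 597 CPM, with 187 CPM in CC_5. H2afz, a histone variant, had 5143 CPM in CC_5 and 7891 CPM in CC_10, with a median of 381 CPM. Isyna1, the enzyme that makes inositol phosphate from glucose phosphate, had 3817 CPM and a median of 532 CPM. The yield of CC_5, at 523400 gene counts and 0.450 per spike-in count, was within the range of the other 9 cells of that set. Its mitochondrial share of 9.47% was the highest of the 10, as were the 28.9% of its counts held by its top 50 genes, and its Rn45s share of 63.5% was below those of CC_2 and CC_11 alone. The part of these measures in the differences was not tested.

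Genes high in few cells were mostly those of CC_2. A gene was so called where 1 to 3 cells had at least 100 CPM and every other cell was under 10 CPM, which in CC_10, where 1 count is worth 6.56 CPM, allows 1 count. Over 12 cells 685 of 24447 genes met this (2.8%), or 9.07% of the 7555 genes that reached 100 CPM in any cell, and 650 of them were high in 1 cell, 32 in 2 and 3 in 3. CC_2 alone accounted for 508, CC_11 alone for 80, CC_5 for 20, and each other cell for 0 to 9. Together the 532 such genes high in CC_2 held 12.9% of its counts, and the 95 high in CC_11 held 1.84%. Over 10 cells the count was 218 (0.892%), of which 119 were high in CC_11, and without CC_11 too it was 113. The count depended on the scaling and the thresholds. With Rn45s kept in the total 34 genes met the rule, 302 did per ERCC count and 300 at thresholds of 200 and 20 CPM.

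Of the 15 such genes of highest CPM, 13 were highest in CC_2. Saa3, an acute-phase serum amyloid, had 3416 CPM in CC_2, 9.40 CPM in CC_1, 6.38 CPM in CC_4 and 0 elsewhere. Pira6, a receptor of myeloid cells, had 1199 CPM and F12, coagulation factor XII, 1124 CPM, each with 0 in the other 11 cells. Emid1, Kif12, Slc2a6, Psrc1, Olfr1330, Akna, Adgrg3, Scube2 and Ceacam2 had 695 to 1209 CPM in CC_2 and 0 in every other cell. Of the members of the fixed lists, Laptm5, C1qa, C1qc and Coro1a (immune), Mos (oocyte), Pdgfrb (stroma), Atf3 and Klf4 (immediate early) and Mcm5 (proliferation) were high in CC_2, Ccnb2 in CC_10 at 171 CPM and Mcm3 in CC_5 at 103 CPM. CC_2, with 12 of 16 immune markers and 6314 of 24447 gene rows counted, was also the cell with the lowest correlation to the rest. It had the most genes found nowhere else, 1377 against 28 to 452.

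Outside CC_2 the strongest such genes were few. Psat1, of serine synthesis, had 768 CPM in CC_8, 241 CPM in CC_6, 227 CPM in CC_4 and 0 in the other 9 cells, so it was shared by 3 cells of good yield. Prkdc, the catalytic subunit of DNA-dependent protein kinase, had 719 CPM in CC_11 and 3.83 CPM in CC_4. CC_11 was also highest of the 10 cells for Snhg11 (589 CPM), Pxylp1 (546 CPM), Peak1 (529 CPM) and Mtx3 (513 CPM). The genes named next were highest in other cells. Over the 10 cells, Il1a, an interleukin, had 476 CPM in CC_8 and 7.17 CPM in CC_6, and Ankrd1, a muscle ankyrin repeat protein and Hippo target, had 332 CPM in CC_8 alone. Dusp6, a phosphatase induced by ERK signalling, had 403 CPM in CC_8, 162 CPM in CC_9 and 151 CPM in CC_5, and Lgr5, a Wnt co-receptor, had 369 CPM in CC_3, 204 CPM in CC_1 and 129 CPM in CC_9. Trps1, a transcription factor, had 346 CPM in CC_9 and Mgll, a lipase, 359 CPM in CC_12, both with under 10 CPM in the rest of the 10.

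The sum of the cumulus expansion genes ran from 98.5 CPM in CC_10 and 843 CPM in CC_2 to 6684 CPM in CC_9, and over the 10 cells it was 2143 to 6684 CPM. Ctsl and Tnc made up much of it, with 3523 and 2139 CPM in CC_9. Ctsl was the only 1 of the list counted in CC_10. Of the 22 genes, 1 had a count in all 12 cells (4.55%, against 3.73% of all gene rows). Of the 22 genes 4, Areg, Snap25, Bmp2 and Hmmr, were at 0 in all cells. Tnfaip6, which crosslinks the hyaluronan matrix, had a count in 9 cells, with 957 CPM in CC_11, a median of 120 CPM and 0 in CC_7, CC_10 and CC_12. Ptgs2, the inducible prostaglandin synthase, had 328 CPM in CC_4 and 223 CPM in CC_9 among 5 cells with a count, and Has2, the hyaluronan synthase, had 24.6 CPM in CC_8 alone. Of the identity list, Inhba, the activin and inhibin subunit, had 1949 CPM in CC_9 and 993 CPM in CC_8, with a median of 91.7 CPM.

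The spread between cells was set beside that between whole embryos. Over the 869 genes with a count in every cell and every control embryo, the median CV was 0.630 for 12 cells, 0.525 for 10 cells and 0.358 for the 9 control embryos. It was 0.369 for embryos thinned to 919649 counts, the median of the cells. The CV was larger over the 10 cells than over the embryos for 640 genes (73.6%). Cells of 1 sample cannot be tested against embryos, and an embryo sums 2 cells, so no more than the values is given.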

How the data were processed

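The authors deposited whole-number counts per gene for 29 libraries (24540 rows) and FPKM values for these rows. The submitters' processing notes list FastQC, STAR 2.7.3a, R 4.0.2 and mm10. Which counter, annotation and strand option were used is not given in the sources used here. Deposited FPKM equalled count per library sum and length for 11089 of 11089 genes checked (tolerance 0.001), and served only as an alternative for 1 correlation. CPM was computed from counts without the 92 ERCC rows and Rn45s (49.3% to 86.6% of gene counts). Cells were picked by hand, no doublet caller was run, and no cell was filtered out.

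Counts of genes, CV and Spearman's rho were computed with Python 3.11.15, pandas 2.3.3 and scipy 1.17.1, and TMM factors with edgeR 4.0.16 in R 4.3.3. The procedures were tested on simulated data. Positions were matched by symbol to GENCODE M21, and promoters taken from RefSeq.

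Genes were named by rule: the 4 markers, the 10 core genes of highest median CPM and of lowest and highest CV (mean of at least 100 CPM), the 15 few-cell genes of highest CPM, up to 12 genes per direction that follow both reference genes, list members among these, and the 2 most abundant members of each of 24 lists, without predicted genes. Some genes that the rule names are left out of the text. Names outside the rule were chosen after their values were seen. Members and lists were chosen with earlier results of these data known. Alternatives covered cells left out, Rn45s kept, TMM, spike-in scaling, thinning, thresholds, the FPKM table and Pearson's correlation.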

Additional observations from a re-analysis of the deposited data

How the results depend on the processing

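Cells left out, Rn45s kept, TMM factors, spike-in scaling and thinning were applied to every value, and the other alternatives only to the values whose definition they change. No correlation between Cyp11a1 and Hsd3b1 changed sign, and with the FPKM table it was 0.43. A count is given below where it moved by over 1.5 times, and a CV or correlation where it left the range from leaving out 1 cell at a time. Without CC_2 and CC_10, genes with a count in all cells went from 913 to 1944, genes high in few cells from 685 to 218, genes running against both reference genes from 0 to 3, and the median CV from 0.633 to 0.587. Without CC_11 as well, an alternative added after seeing the data, these were 2597, 113, 8 and 0.558. Asking for at least 5 counts left 589 genes in all 12 cells. Genes high in few cells numbered 34 with Rn45s kept in the total, 302 per ERCC count and 300 at thresholds of 200 and 20 CPM. Genes following both reference genes numbered 1 with TMM factors, 57 per ERCC count and 0 by Pearson's correlation, and those running against both numbered 1 with Rn45s kept, with TMM factors or thinned. The median CV was 0.669 with Rn45s kept, 0.595 with TMM and 0.749 per ERCC count. For Cyp11a1 the CV went from 0.639 to 0.714 with Rn45s kept, 0.701 with TMM and 1.02 per ERCC count. That of Timp1 went from 0.454 to 0.624 per ERCC count. That of Spp1 went from 0.674 to 0.482 without CC_2 and CC_10. Without CC_11 as well, the CV was 0.405 for Spp1 and 0.692 for Cyp11a1. The correlation between Cyp11a1 and Hsd3b1 was 0.11 by Pearson's correlation and 0.26 without CC_12 and CC_5. Leaving out 1 cell at a time gave 916 (the lowest) to 1420 (without CC_2) genes in all cells, 221 (without CC_2) to 746 genes high in few cells, 1 (without CC_3 or CC_12) to 24 (without CC_4) genes following both, 0 to 2 running against both, a rho of 0.31 (without CC_12) to 0.70 (without CC_4), and a median CV of 0.609 to 0.655. Genes following both numbered 5 without CC_5 or CC_8, 6 without CC_9 and 7 without CC_6. The causes were not tested. Depth limits CC_2 and CC_10 most, where 3 counts are worth 15.9 and 19.7 CPM. No paired analysis was possible because the results come from no test and the cell numbers only name the libraries.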

Other observations

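The values of 4 long RNAs known to stay in the nucleus are given here, chosen after they were seen. Malat1 had 18049 CPM in CC_11, 14755 CPM in CC_2, a median of 3370.0 CPM and 0 in CC_10. Neat1, the RNA of paraspeckles, had 3805 CPM in CC_11, 3799 CPM in CC_6 and a median of 149 CPM. Kcnq1ot1 had 870.2 CPM in CC_11 and 509 CPM in CC_2, and Xist, which coats the inactive X chromosome, had 959 CPM in CC_11 and a median of 302 CPM. Zeros were also found for Xist in CC_1 and CC_2, Neat1 in CC_1, and Kcnq1ot1 in CC_5, CC_7 and CC_9. All 4 were at 0 in CC_10, the cell without mitochondrial counts, whose ribosomal protein genes and actin Actb (26081 CPM against 1087 to 10008 CPM in the others) were highest. CC_11, with the most Malat1, held the lowest sum of ribosomal protein genes. Syne2, of the nuclear envelope, and Tenm4, a cell-surface protein, were also highest in CC_11, at 3731 and 2706 CPM. Itm2a, a membrane protein, had 5932 CPM in CC_1 and at most 1502 CPM in the other 11 cells.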
